A study of Mus musculus with 41 samples.

Results

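The genes described here are 31 developmental transcription factors and cofactors whose best-known roles lie mostly outside the brain, in the heart, limb, face, kidney, gut and skin. They were chosen by symbol from the 34591 entries of the expression table, with no filter on level, and all 31 were found. They comprise 4 GATA factors, 8 T-box factors, 6 bHLH and bHLH-PAS factors, 3 Msx and Barx homeobox factors, 2 partners of 1 network, Six2 and Eya1, 5 paired-type homeobox factors and 3 LIM homeobox factors. RNA-seq was measured in 41 mouse libraries. The 20 K27M tumors arose in the brainstem of mice that carried Nestin-creERT2, H3f3aLSL-K27M-Tag/+, LSL-PDGFRαV544ins and Trp53flox/flox, and 9 WT-Tag tumors had H3f3aLSL-WT-Tag/+ in place of the mutant allele. Neurospheres, clusters of neural precursors grown in suspension, were made from E15.5 hindbrain or forebrain of Nestin-cre embryos. Each region gave 3 K27M cultures and 3 cultures with WT-Tag, carrying H3f3aLSL-K27M-Tag/+ or H3f3aLSL-WT-Tag/+ and neither the receptor nor the Trp53 alleles. In every group Cre, driven by the promoter of the neural progenitor gene Nestin, removes a stop cassette so that tagged histone H3.3 is made from 1 H3f3a allele, while the other allele stays wild type. K27M replaces lysine 27 of that histone with methionine. The WT-Tag tumors thus shared the activated PDGF receptor and the loss of p53 with the K27M tumors. Tumors are named by tumor number and cultures by experiment id, and neither the age of the mice nor the pooling of animals is given in the labels.

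Lysine 27 of histone H3 is the residue that Polycomb repressive complex 2 (PRC2) methylates, and the trimethylated form, H3K27me3, keeps developmental genes of other lineages silent. H3.3 K27M lowers H3K27me3 across most of the genome while some regions keep or gain it. GATA, T-box, Hand, Msx, Pitx and Alx genes are textbook Polycomb targets in embryonic stem cells, with CpG-dense promoters that carry H3K27me3 in cells that do not use them. The label of Polycomb control rests on that background, because no chromatin data were analysed here. Several members also have known roles in the nervous system. Isl1 and Isl2 act in motor neurons, Gata2 and Gata3 in brainstem and midbrain neurons, Tbx20 in cranial motor neurons, Lmx1a in the roof plate and dopamine neurons, Sim1 in the hypothalamus and Hand2 in noradrenergic neurons of the sympathetic system.

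The density of CpG dinucleotides at the promoter was examined first. It was not measured to choose the genes, but textbook Polycomb targets have CpG-dense promoters. A high share among the members thus follows in part from the choice. RefSeq promoters of 300 bases (250 before and 50 after the start, build GRCm38.p6) were at hand for 19 members, which have 21 promoters between them. Gata6, Tbx15 and Eya1 were among the members without one. Of these 21 promoters, 17 (81.0%) had a GC content of at least 50% and at least 0.6 of the CpG count that the base composition predicts, against 33.5% of all 32851 promoters. The median was 25 CpGs per member promoter and 7 over all promoters. The motif searched was CG, which reads the same on both strands, and 94.6% of all promoters held at least 1. The exceptions among the members were Prrx1, Tbx4, Lmx1a and Sim1. The promoters of 4 members to which the results return are printed 5′ to 3′ on the gene's strand with every CG in capitals, 2 from genes called lower in K27M tumors (Barx1 and Hand2), 1 from a gene called higher in hindbrain cultures (Twist1) and, for contrast, the CpG-poor Prrx1. They lie at chr13:48662786-48663085 (Barx1, plus strand), chr8:57320733-57321032 (Hand2, plus strand), chr12:33957421-33957720 (Twist1, plus strand) and chr1:163313601-163313900 (Prrx1, minus strand).
Barx1: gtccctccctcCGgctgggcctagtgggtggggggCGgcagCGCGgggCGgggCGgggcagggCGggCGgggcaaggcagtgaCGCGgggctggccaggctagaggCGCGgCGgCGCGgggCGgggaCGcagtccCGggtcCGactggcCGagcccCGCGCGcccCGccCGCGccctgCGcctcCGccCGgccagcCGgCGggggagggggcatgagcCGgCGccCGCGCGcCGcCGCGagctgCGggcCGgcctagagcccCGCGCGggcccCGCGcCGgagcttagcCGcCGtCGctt
Hand2: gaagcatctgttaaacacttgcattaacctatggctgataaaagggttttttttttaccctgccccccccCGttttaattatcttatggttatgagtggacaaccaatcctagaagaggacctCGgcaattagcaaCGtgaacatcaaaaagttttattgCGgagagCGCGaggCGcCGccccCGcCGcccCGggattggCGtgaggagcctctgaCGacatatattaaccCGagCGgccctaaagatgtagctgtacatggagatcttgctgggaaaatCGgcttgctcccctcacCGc
Twist1: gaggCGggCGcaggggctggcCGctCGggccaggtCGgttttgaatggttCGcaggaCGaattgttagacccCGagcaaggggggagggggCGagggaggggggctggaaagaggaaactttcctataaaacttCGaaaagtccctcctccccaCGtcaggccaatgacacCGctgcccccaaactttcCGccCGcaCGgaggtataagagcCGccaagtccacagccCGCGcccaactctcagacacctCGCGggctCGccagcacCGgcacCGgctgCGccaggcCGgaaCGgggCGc
Prrx1: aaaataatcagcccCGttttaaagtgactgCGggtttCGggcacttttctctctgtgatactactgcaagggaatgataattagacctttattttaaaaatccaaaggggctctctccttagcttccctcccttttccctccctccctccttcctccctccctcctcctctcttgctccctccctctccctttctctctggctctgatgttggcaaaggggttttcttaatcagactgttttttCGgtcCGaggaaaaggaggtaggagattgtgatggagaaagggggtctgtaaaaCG
The Barx1 stretch holds 50 CpGs, Twist1 27, Hand2 17 and Prrx1 6.

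Most members had a median below 1 FPKM in every group, and in the culture groups most had a median below 0.1 FPKM. A gene's level is given in FPKM, which scales fragments to transcript length and library size, so that levels of different genes can be compared. Only 2 of 31 members had a median of at least 1 FPKM in K27M tumors (Eya1 and Prrx1) and 4 in WT-Tag tumors (Msx1, Prrx1, Tbx2 and Eya1), whereas 42.2% of all table entries did so in K27M tumors and 42.1% in those with WT-Tag. In each culture group the same 3 members, Eya1, Prrx1 and Prrx2, had a median of at least 1 FPKM. Summed over the 31 members, K27M tumors held 8.997 to 23.9 FPKM (median 15.4) and WT-Tag tumors 13.3 to 32.0 FPKM (median 21.1). Medians below 0.1 FPKM were found for 15 members in K27M tumors, for 14 in those with WT-Tag and 24 to 27 members in the culture groups. Among tumors, 16 of 31 members with K27M and 17 of 31 with WT-Tag reached a median of at least 0.1 FPKM. The shares of all table entries were similar, 56.6% and 56.7%, so at this cut the members did not stand out. In the culture groups 4 to 7 members reached it, against 48.1% to 50.1% of all entries. Hand1, a factor of heart and placenta, was listed at 0 in 19 of 20 K27M tumors and in 9 of 9 WT-Tag tumors.

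**Figure D1:**
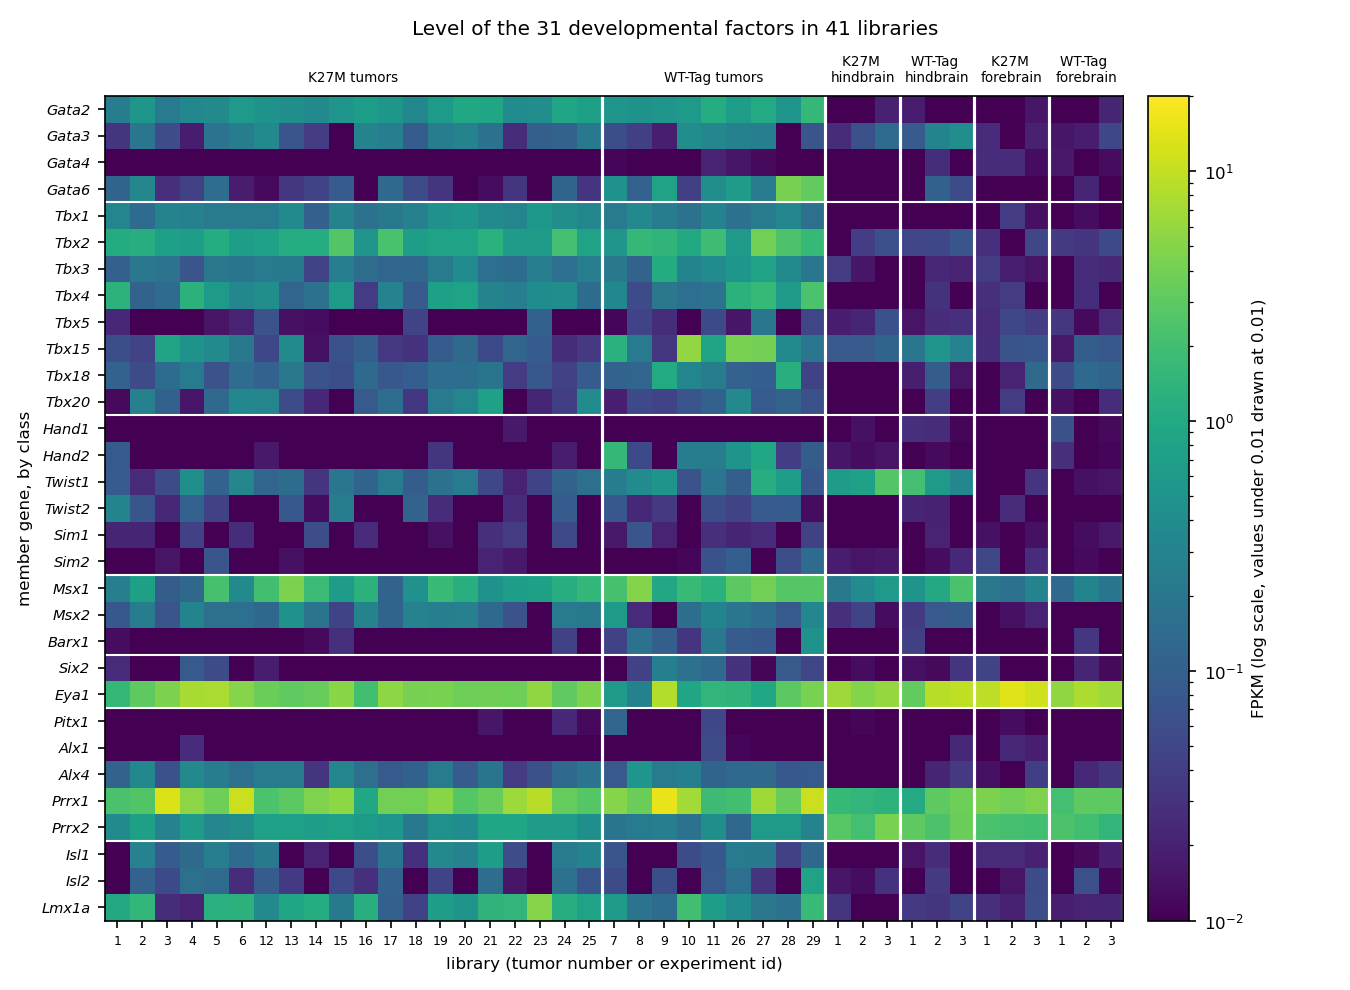
Level of each of the 31 genes (rows, by class) in each of the 41 libraries (columns, by group), as FPKM on a log color scale. Eya1, Prrx1 and Prrx2 form the bright rows in cultures, and Gata6, Tbx15, Hand2 and Barx1 are brighter in WT-Tag tumors than in K27M tumors.

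The depth, read from the step size of low FPKM values and rounded to 100000 reads, was 16100000 to 67400000 reads in K27M tumors (median 34400000), 31400000 to 65500000 reads in WT-Tag tumors (median 47600000) and 10000000 to 44000000 reads in cultures. H3f3a was measured at 34.0 to 101 FPKM in K27M tumors and 43.7 to 111 FPKM in WT-Tag tumors, and at 89.0 to 115 FPKM in cultures, a level that does not separate the alleles. WT-Tag tumors 8 and 9 go against their sex labels. Tumor 8, labelled female, had 0.031 FPKM of Xist and 3.44 FPKM of Ddx3y, and tumor 9, labelled male, had 54.5 FPKM of Xist and 0.003 FPKM of Ddx3y. Results in tumors are therefore also given without this pair where that changes a call. Fits with a term for sex used the labels as given, also for this pair. Summed neuron markers reached 327 to 993 FPKM in K27M tumors and 140 to 666 FPKM in WT-Tag tumors, and summed pericyte and fibroblast markers 33.2 to 102 FPKM in K27M tumors and 31.01 to 237 FPKM in WT-Tag tumors. In bulk tissue, fewer cells of a type and less RNA per cell cannot be told apart. The part that other cell types play in the differences between the tumor groups was not tested beyond 2 fits that carried the mean log2 level of the neuron or of the pericyte and fibroblast markers as a term.

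The first comparison asked whether tumors with K27M hold more or less RNA of these factors than tumors with tagged wild-type H3.3. In K27M tumors the endoderm and heart factor Gata6, the heart, limb and sympathetic factor Hand2 and the stomach and face factor Barx1 were lower than in WT-Tag tumors, and no member passed the threshold in the other direction. All 3 had medians below 0.1 FPKM in K27M tumors, and they were called only in fits that keep low genes. In the fit at 1 FPKM (limma on log2(FPKM + 1), genes at 1 FPKM or more in at least 9 tumors, Benjamini-Hochberg adjustment over 15360 genes, threshold 0.05), 5 members could be tested and 0 were called, against 0.0846% of all genes, and 2 of the 5 had an unadjusted p below 0.05, against 7.19% of genes. In the fit at 0.1 FPKM (filter and pseudocount 0.1, 20689 genes), 19 members could be tested and 1 was called, Gata6, against 0.174% of genes. In the fit of every gene above 0 (pseudocount 0.1, 30912 genes), all 31 members were tested and 3 were called, all lower, against 0.136% of genes. That fit was added after the values were seen. At an unadjusted p below 0.05, 13 of the 31 members (41.9%) were lower in K27M tumors, against 3.93% of all genes, and 2 members (6.45%) were higher, against 2.78%. The median log2 change was -0.20 over the 31 members and -0.0031 over all genes.

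**Figure D2:**
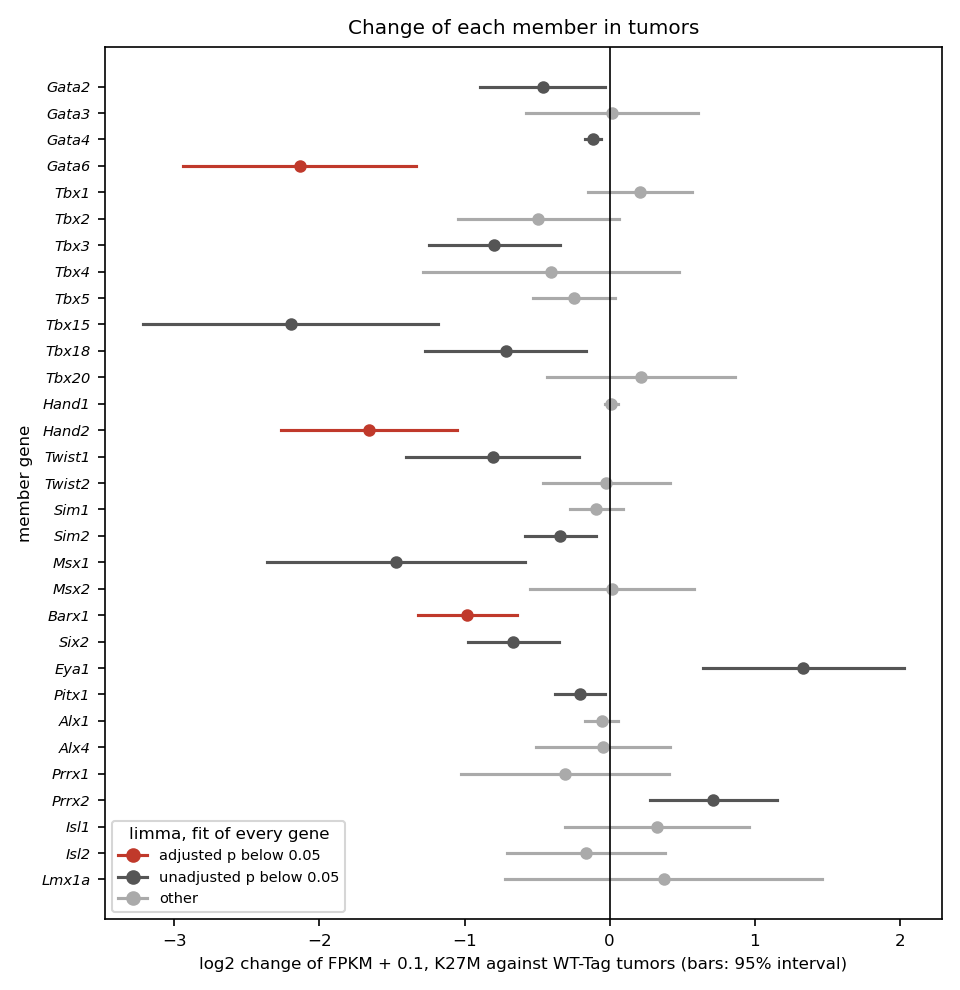
Log2 change of FPKM + 0.1 in K27M against WT-Tag tumors for each of the 31 genes, with 95% intervals, from the limma fit of every gene. The adjusted p was below 0.05 for Gata6, Hand2 and Barx1, all left of 0, while Eya1 and Prrx2 lie right of 0 at an unadjusted p below 0.05.

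Among the GATA factors, Gata6 ran from 0 to 0.334 FPKM in K27M tumors (median 0.0325) and from 0.042 to 4.23 FPKM in WT-Tag tumors (median 0.481). The groups overlapped, but 6 of 9 WT-Tag tumors lay above every K27M tumor, and WT-Tag tumors 28 and 29, at 4.23 and 3.24 FPKM, stood highest. In reads recovered from the FPKM steps this was 199 over the 20 K27M tumors and 1496 over the 9 WT-Tag tumors. The log2 change was -2.14 ± 0.39 (SE; limma, fit at 0.1 FPKM, adjusted p = 0.00795), and the adjusted p stayed between 0.00105 and 0.0275 with any 1 tumor left out. Without WT-Tag tumors 28 and 29 the log2 change was -1.42 (adjusted p = 0.0329), and with the pericyte and fibroblast markers in the fit it was -2.13 (adjusted p = 0.00773). With a pseudocount of 1 and no filter it was -0.76 (adjusted p = 0.127). The other 3 GATA factors were not called. Gata2, a factor of blood stem cells and GABA neurons, was the most abundant, with 0.225 to 0.932 FPKM in K27M tumors (median 0.512) and 0.483 to 1.57 FPKM in WT-Tag tumors (median 0.614). Gata3, known from T cells and serotonin neurons, had medians of 0.145 FPKM in K27M tumors and 0.074 FPKM in WT-Tag tumors. The heart factor Gata4 reached at most 0.009 FPKM in K27M tumors and 0.021 FPKM in WT-Tag tumors. Markers of lymphocytes and mast cells, which use Gata2 and Gata3, were below 0.1 FPKM in the median for 11 of 12 genes in both tumor groups.

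Among the T-box factors, Tbx15, a factor of skin and skeleton, reached the highest level. It ran from 0.014 to 0.836 FPKM in K27M tumors (median 0.080) and from 0.033 to 5.85 FPKM in WT-Tag tumors (median 0.847). WT-Tag tumors 10, 26 and 27 held 5.85, 4.37 and 4.07 FPKM, 5 of 9 WT-Tag tumors lay above every K27M tumor, and WT-Tag tumor 9 lay among the lowest. The log2 change of -2.20 ± 0.49 (fit at 0.1 FPKM) missed the threshold (limma adjusted p = 0.0543). It passed without WT-Tag tumors 8 and 9 (-2.84, adjusted p = 0.00301) and without 28 and 29 (-2.59, adjusted p = 0.0308). It also passed without any 1 of WT-Tag tumors 8, 9 and 29 or K27M tumors 3 and 4, where the adjusted p was 0.00897 to 0.0447, and with the neuron markers in the fit (-2.31, adjusted p = 0.0452). It missed in the other fits that left out 1 tumor (adjusted p up to 0.182). With labelled sex or the pericyte and fibroblast markers in the fit it missed too (adjusted p = 0.0584 and 0.0605). The sex term used the labels as given, also for WT-Tag tumors 8 and 9, which go against theirs. The limb and breast factor Tbx3 had medians of 0.187 FPKM in K27M tumors and 0.383 FPKM in WT-Tag tumors, where 4 of 9 tumors lay above every K27M tumor (log2 change -0.79 ± 0.22, limma adjusted p = 0.248). Tbx18, a factor of the epicardium and of pericytes, reached 0.224 FPKM at most in K27M tumors, while WT-Tag tumors 9 and 28 held 1.04 and 1.19 FPKM (log2 change -0.71 ± 0.27, limma adjusted p = 0.542). Tbx2, which with Tbx3 represses cell cycle inhibitors, was the most abundant T-box gene, with medians of 0.816 FPKM in K27M tumors and 1.56 FPKM in WT-Tag tumors (log2 change -0.31 ± 0.16 in the fit at 1 FPKM, adjusted p = 0.726). The medians of Tbx1 and Tbx4 were 0.302 and 0.321 FPKM in K27M tumors and 0.239 and 0.352 FPKM in WT-Tag tumors. The heart and forelimb factor Tbx5 stayed at or under 0.106 FPKM in K27M tumors and 0.197 FPKM in WT-Tag tumors.

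Among the bHLH factors, Hand2 was at 0 in 13 of 20 K27M tumors, and the remaining K27M tumors reached at most 0.087 FPKM. The WT-Tag tumors ran from 0.007 to 1.59 FPKM (median 0.245), led by tumor 7 at 1.59 and tumor 27 at 0.958 FPKM. None was at 0, and 6 of 9 lay above every K27M tumor. Recovered reads were 19 over 20 K27M tumors, 11 of them in tumor 1, and 382 over 9 WT-Tag tumors, of which 169 were in tumor 7. A K27M tumor at 0 reads allows up to 3 reads, a limit of counting error only. Over the depths of all 20 K27M tumors, those with reads included, 3 reads are 0.0199 to 0.0834 FPKM. The log2 change was -1.66 ± 0.30 (limma, fit of every gene, adjusted p = 0.00733), with an adjusted p of 0.00095 to 0.0252 over fits that left out 1 tumor. With a pseudocount of 1 it was -0.42 (adjusted p = 0.138), and without WT-Tag tumors 8 and 9 it was -2.06 (adjusted p = 0.00017). Exons of Hand2 overlap Hand2os1 on the other strand, and reads of the pair may not have been told apart in counting. Twist1, a factor of mesenchyme and skull sutures, had medians of 0.115 FPKM in K27M tumors and 0.247 FPKM in WT-Tag tumors (log2 change -0.80 ± 0.29, limma adjusted p = 0.483), with the highest value in WT-Tag tumor 27 at 1.14 FPKM. Twist2, Sim1 and Sim2 stayed at or under 0.307, 0.060 and 0.075 FPKM in K27M tumors and 0.090, 0.075 and 0.141 FPKM in WT-Tag tumors.

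Barx1 was at 0 in 16 of 20 K27M tumors with a maximum of 0.044 FPKM, whereas 1 of 9 WT-Tag tumors was at 0 and the maximum was 0.486 FPKM in tumor 29 (median 0.091). In 7 of 9 WT-Tag tumors it exceeded every K27M tumor. The counts behind this were 7 reads over the K27M tumors and 96 over the WT-Tag tumors, so single values rest on few reads. The log2 change was -0.98 ± 0.17 (limma, fit of every gene, adjusted p = 0.00369), with a range of 0.0002 to 0.0146 when 1 tumor was left out, and -0.17 with a pseudocount of 1 (adjusted p = 0.0868). Msx1, a homeobox target of BMP signals in roof plate, limb and tooth, was the most abundant of this class. It ran from 0.093 to 4.48 FPKM in K27M tumors (median 0.756) and from 0.939 to 4.87 FPKM in WT-Tag tumors (median 2.70). Each of the 9 WT-Tag values exceeded the K27M median, and 11 of 20 K27M tumors lay below every WT-Tag tumor, though K27M tumor 13 at 4.48 FPKM lay near the WT-Tag maximum. The log2 change of -0.82 ± 0.22 (fit at 1 FPKM) missed the threshold (limma adjusted p = 0.242). Its paralog Msx2 had medians of 0.175 FPKM in K27M tumors and 0.158 FPKM in WT-Tag tumors.

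**Figure D3:**
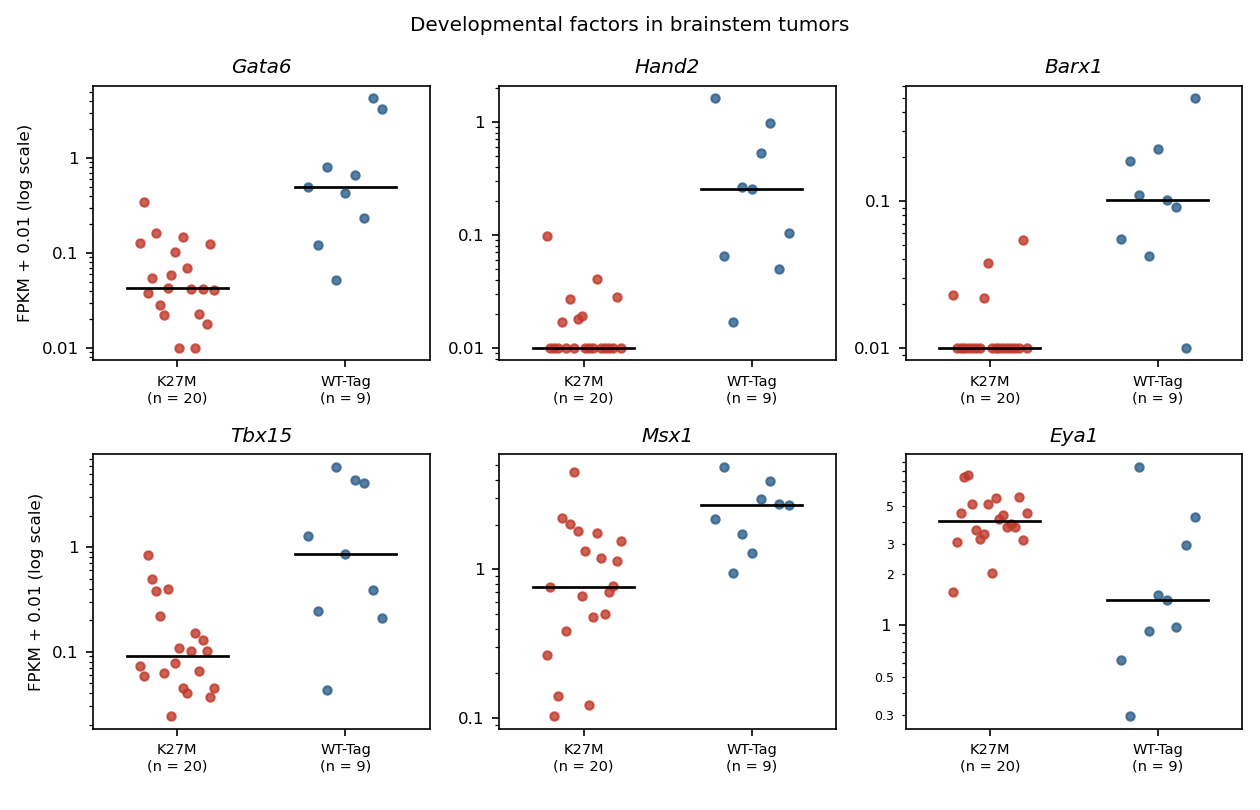
Single tumors (points) and medians (bars) of 6 genes in K27M (left, n = 20) and WT-Tag tumors (right, n = 9), as FPKM + 0.01 on a log axis. Most K27M points of Hand2 and Barx1 lie at the floor of the plot, and for Eya1 the K27M points lie high with WT-Tag tumor 9 above them.

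Eya1, a phosphatase and cofactor of Six2 and its relatives in kidney, ear and muscle, was the member whose level was higher in K27M tumors by the largest log2 change. It ran from 1.56 to 7.53 FPKM in K27M tumors (median 4.04) and from 0.283 to 8.41 FPKM in WT-Tag tumors (median 1.39). Every one of the 20 K27M values exceeded the WT-Tag median, while the highest value of all belonged to WT-Tag tumor 9. The log2 change of 0.88 ± 0.24 (fit at 1 FPKM) missed the threshold with all tumors (limma adjusted p = 0.214) and passed it without WT-Tag tumor 9 (1.10, adjusted p = 0.0133). In the fit at 0.1 FPKM the change was 1.34 ± 0.34 (limma adjusted p = 0.156), and it passed, higher in K27M tumors, without WT-Tag tumor 9 (1.64, adjusted p = 0.00908), without WT-Tag tumors 8 and 9 (1.38, adjusted p = 0.0324) and without WT-Tag tumors 28 and 29 (1.67, adjusted p = 0.0361). Without any 1 other tumor Eya1 did not pass in either fit (adjusted p up to 0.501 at 1 FPKM and 0.364 at 0.1 FPKM). With a term for labelled sex or for neuron or pericyte and fibroblast markers it also missed (adjusted p of at least 0.141 at 1 FPKM and 0.105 at 0.1 FPKM). The labels of WT-Tag tumors 8 and 9 were used as given. At 1 FPKM it missed without WT-Tag tumors 8 and 9 as well (adjusted p = 0.0592). Six2, a factor of kidney progenitors that acts with Eya1, was at 0 in 14 of 20 K27M tumors and in 1 of 9 WT-Tag tumors, with 19 recovered reads over K27M tumors and 91 over WT-Tag tumors. Its log2 change was -0.66 ± 0.15 (limma, fit of every gene, adjusted p = 0.0942).

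The paired-type factors Prrx1 and Prrx2, which mark limb and face mesenchyme, lay apart from Pitx1 and Alx1, whose highest tumor value was 0.119 FPKM. Prrx1 was present in every tumor, at 0.926 to 13.5 FPKM in K27M tumors (median 3.82) and 1.83 to 15.6 FPKM in WT-Tag tumors (median 5.08), and its log2 change was -0.26 ± 0.29 (limma adjusted p = 0.862). Prrx2 had 0.214 to 0.888 FPKM in K27M tumors (median 0.643) and 0.131 to 0.611 FPKM in WT-Tag tumors (median 0.260). In 11 of 20 K27M tumors Prrx2 exceeded every WT-Tag tumor (log2 change 0.72 ± 0.21, limma, fit at 0.1 FPKM, adjusted p = 0.275). Alx4, a limb and skull factor, had medians of 0.165 FPKM in K27M tumors and 0.135 FPKM in WT-Tag tumors. Of the LIM factors, Lmx1a had 0.021 to 5.08 FPKM in K27M tumors (median 0.929) and 0.145 to 2.01 FPKM in WT-Tag tumors (median 0.395), with the maximum in K27M tumor 23 (log2 change 0.21 ± 0.23, limma adjusted p = 0.862). Isl1 had medians of 0.140 FPKM in K27M tumors and 0.074 FPKM in WT-Tag tumors, Isl2 had 0.0505 FPKM in K27M tumors and 0.058 FPKM in WT-Tag tumors, and neither was called.

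Within the K27M group, Tbx20 varied with Isl1 and with Gata3 from tumor to tumor. Relations were computed over the 20 K27M tumors on log2(FPKM + 0.1), among the 19 members at 0.1 FPKM or more in at least 9 tumors and between them and summed neuron, motor and monoamine neuron, and pericyte and fibroblast markers. Of 228 relations, 10 had adjusted permutation p-values below 0.05 for both Pearson's r and Spearman's rho, and all 10 were positive. This set was computed after the values were seen. Tbx20 and Isl1, both factors of cranial motor neurons, had r = 0.837 and rho = 0.814 (n = 20, permutation p = 2e-05 and 7e-05, adjusted 0.00152 and 0.00266), and r = 0.760 without the 2 tumors farthest from the median of Tbx20. K27M tumor 21 held the most of both, 0.771 FPKM of Tbx20 and 0.688 FPKM of Isl1, while tumor 15 held 0.009 and 0 FPKM. In the 9 WT-Tag tumors r was 0.593 and rho 0.510 (exact permutation p = 0.0862 and 0.164).

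**Figure D4:**
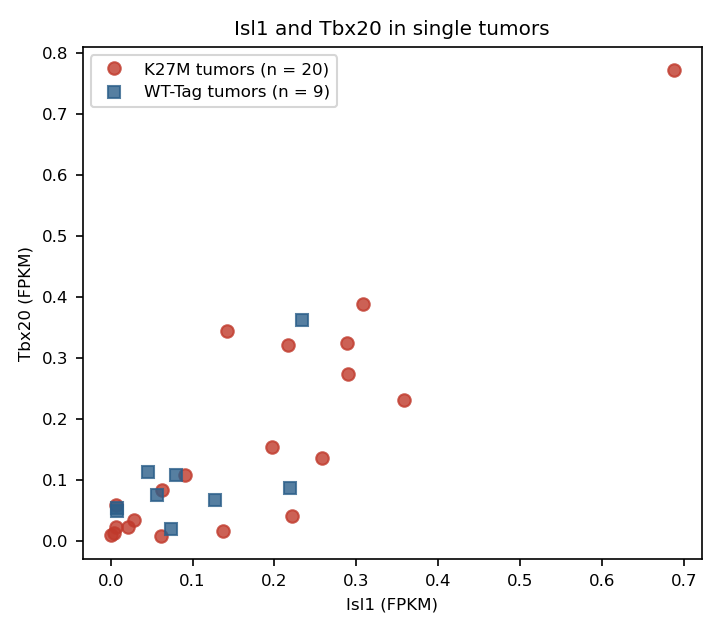
Tbx20 against Isl1 in FPKM, 1 point per tumor, for K27M tumors (circles, n = 20) and WT-Tag tumors (squares, n = 9). Both genes lie below 0.4 FPKM in nearly every tumor, and K27M tumor 21 lies highest for both.

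The summed motor and monoamine neuron markers (11 genes, among them Chat and Th), which hold none of the members, went with the same genes in K27M tumors. For Tbx20 r was 0.861 and rho 0.847 (permutation p = 1e-05 each, the smallest that 100000 permutations can give, adjusted 0.00114 and 0.00228). For Gata3 r was 0.873 and rho 0.808 (p = 1e-05 and 5e-05, adjusted 0.00114 and 0.00266), and for Isl1 r was 0.818 and rho 0.817 (p = 7e-05 and 4e-05, adjusted 0.00266 each). Without the 2 farthest tumors these 3 values of r were 0.831, 0.872 and 0.788. In WT-Tag tumors the same relations had r = 0.652 for Tbx20, 0.766 for Gata3 and 0.740 for Isl1 (exact permutation p = 0.054, 0.0161 and 0.0228). The values of rho were 0.55, 0.833 and 0.854 (exact permutation p = 0.133, 0.00827 and 0.00539). Gata2 went with the general neuron markers in K27M tumors (r = 0.769, rho = 0.806, permutation p = 0.00013 and 7e-05, adjusted 0.00399 and 0.00266, r = 0.709 without the 2 farthest). In WT-Tag tumors r was 0.437 for Gata2 and these markers (exact permutation p = 0.24). Tbx18 went with the pericyte and fibroblast markers (r = 0.789, rho = 0.768, p = 6e-05 and 0.00015, adjusted 0.00266 and 0.00428, r = 0.675 without the 2 farthest), and in WT-Tag tumors its r was 0.116 (exact permutation p = 0.827). The other 4 relations past both thresholds were Gata3 with neuron markers, Gata3 with Tbx20, Tbx20 with neuron markers and Gata2 with the motor and monoamine markers. The tumors share tissue make-up and the gene values share a library, so these relations describe tumors and not cells.

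The second pair of comparisons asked what K27M does to these genes in neural progenitor cultures, without the receptor and Trp53 alleles. In cultures 3 members passed the 1 FPKM filter, Eya1, Prrx1 and Prrx2, and none was called by limma. In hindbrain 0 of 3 passed, against 13.5% of 13190 genes, and 0 of 3 had an unadjusted p below 0.05, against 30.8%. In forebrain 0 of 3 passed, against 0.356% of genes, and 1 of 3 had an unadjusted p below 0.05, against 13.1%. With the fit at 0.1 FPKM, 8 members could be tested, and again 0 were called in hindbrain (9.07% of genes) and 0 in forebrain (0.22%). With 3 libraries against 3, a permutation test of 1 gene cannot give a p below 0.1. Whether the 3 cultures of a group came from separate embryos is not given in the labels, so p-values measure the spread between these cultures. The labels give the WT-Tag cultures of experiment 3 as male in both regions and all other cultures as female, so in experiment 3 sex and genotype cannot be told apart. The other 23 members stayed low in culture, with no library above 0.106 FPKM.

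In hindbrain cultures Prrx1 had 1.63, 1.49 and 1.38 FPKM with K27M, against 1.05, 3.05 and 3.71 FPKM with WT-Tag. WT-Tag culture 1 lay below the K27M cultures and the other WT-Tag cultures above them (log2 change -0.44 ± 0.25, limma adjusted p = 0.251). Without WT-Tag culture 1, the WT-Tag value on the other side of the K27M cultures, the log2 change was -0.81 (adjusted p = 0.00258). Over all fits that left out 1 culture it ran from -0.81 to -0.21 (adjusted p up to 0.632), and only that fit passed. Eya1 behaved likewise, with 6.496, 4.83 and 5.99 FPKM with K27M, against 3.23, 8.85 and 9.63 FPKM with WT-Tag (log2 change -0.18 ± 0.29, limma adjusted p = 0.708, and -0.60 with adjusted p = 0.0229 without WT-Tag culture 1). Over all fits that left out 1 culture Eya1 ran from -0.60 to 0.061 (adjusted p up to 0.994), and no other fit passed. Prrx2 had 2.75, 2.07 and 4.29 FPKM with K27M, against 3.07, 2.39 and 3.59 FPKM with WT-Tag (log2 change -0.02 ± 0.19, limma adjusted p = 0.960).

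In the fit at 0.1 FPKM, 3 members had the smallest p-values in hindbrain. Tbx15 had 0.084, 0.084 and 0.115 FPKM with K27M, against 0.196, 0.533 and 0.292 FPKM with WT-Tag, without overlap. Its log2 change was -1.11 ± 0.33 (limma, fit at 0.1 FPKM, adjusted p = 0.0569), and the adjusted p was 0.033 with the replicate block, a term for the experiment. Without WT-Tag hindbrain culture 1 the change was -1.36 (adjusted p = 0.0162). No other fit that left out 1 culture passed (adjusted p up to 0.222). All 3 WT-Tag hindbrain libraries, 1 K27M hindbrain library and no forebrain library reached 0.1 FPKM for Tbx15. The filter was thus met mostly through the group where Tbx15 is high, so these p-values are not read as support for the difference. Msx1 had 0.218, 0.386 and 0.616 FPKM with K27M, against 0.516, 0.991 and 2.25 FPKM with WT-Tag, lower within each experiment but with overlap between groups (log2 change -1.28 ± 0.46, limma adjusted p = 0.109 without and 0.0457 with the replicate block, and 0.017 without WT-Tag hindbrain culture 1). For Msx1 no other fit that left out 1 culture passed (adjusted p up to 0.329). Gata3 had 0.026, 0.065 and 0.141 FPKM with K27M, against 0.089, 0.313 and 0.418 FPKM with WT-Tag (log2 change -1.004 ± 0.39, limma adjusted p = 0.129), which is 3, 9 and 17 reads against 12, 48 and 73. For Gata3, 2 WT-Tag hindbrain libraries, 1 K27M hindbrain library and no forebrain library reached 0.1 FPKM. Its filter was thus also met mostly through the group where it is high, and its p-value is not read as support. In the fit of every gene, 5 of 31 members had an unadjusted p below 0.05 in hindbrain, all lower with K27M (Tbx15, Gata6, Gata3, Msx1 and Msx2), 16.1% against 8.25% of all genes. None had one in the other direction (9.29% of genes), and 0 were called (3.28% of genes). Gata6 in hindbrain rested on 0, 1 and 0 reads with K27M and 1, 13 and 8 reads with WT-Tag. Groups did not overlap for 5 members lower with K27M, against 9.43% of all genes, and apart from Tbx15 these (Gata4, Tbx18, Tbx20 and Sim1) held at most 0.094 FPKM. The 1 member higher without overlap, Hand2 (8.34% of genes), held at most 0.016 FPKM. The pericyte and fibroblast markers summed to 21.8 to 27.1 FPKM in K27M hindbrain cultures and 6.45 to 33.0 FPKM in WT-Tag hindbrain cultures, and 7 of 14 K27M medians and 3 of 14 WT-Tag medians lay below 0.1 FPKM (Abcc9, Kcnj8 and Foxd1 in both). Summed astrocyte markers, of which 5 of 7 tested were called lower, were 165 to 188 FPKM in K27M hindbrain cultures and 338 to 561 FPKM in WT-Tag hindbrain cultures, and their part in these values was not tested.

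In forebrain cultures Eya1 had 9.42, 13.99 and 11.4 FPKM with K27M, against 5.63, 7.83 and 6.52 FPKM with WT-Tag, in the order of experiments 1, 2 and 3. The groups did not overlap (log2 change 0.71 ± 0.29, limma adjusted p = 0.333). Prrx1 had 4.41, 3.995 and 4.59 FPKM with K27M, against 2.04, 3.06 and 3.04 FPKM with WT-Tag, also without overlap (log2 change 0.53 ± 0.25, limma adjusted p = 0.402). Prrx2 had 2.25, 2.11 and 1.99 FPKM with K27M, against 2.40, 2.02 and 1.49 FPKM with WT-Tag, and the groups overlapped (log2 change 0.08 ± 0.19, limma adjusted p = 0.891). Over all 31 members the forebrain groups did not overlap for 3 members higher with K27M, Eya1, Prrx1 and Isl1, against 8.31% of all genes, and for 1 lower, Hand2, against 5.33%. Isl1 and Hand2 lay at or under 0.029 FPKM there. In the fit of every gene, 1 of 31 members, Eya1, was higher at an unadjusted p below 0.05 in forebrain (4.77% of genes) and 0 were lower (3.49%).

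The difference between the K27M effects of the regions, hindbrain minus forebrain, passed the threshold for 0 of 3 members (0.0379% of genes), and 1 of 3 had an unadjusted p below 0.05 (6.3%). In the fit at 0.1 FPKM 0 of 8 passed (0.0161%). It was -0.98 ± 0.35 for Prrx1 (limma adjusted p = 0.624) and -0.89 ± 0.42 for Eya1 (adjusted p = 0.812). Without WT-Tag hindbrain culture 1 both passed, at -1.34 (adjusted p = 0.00721) and -1.32 (adjusted p = 0.0206). Of the fits that left out 1 culture, only this one passed the threshold for either gene.

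**Figure D5:**
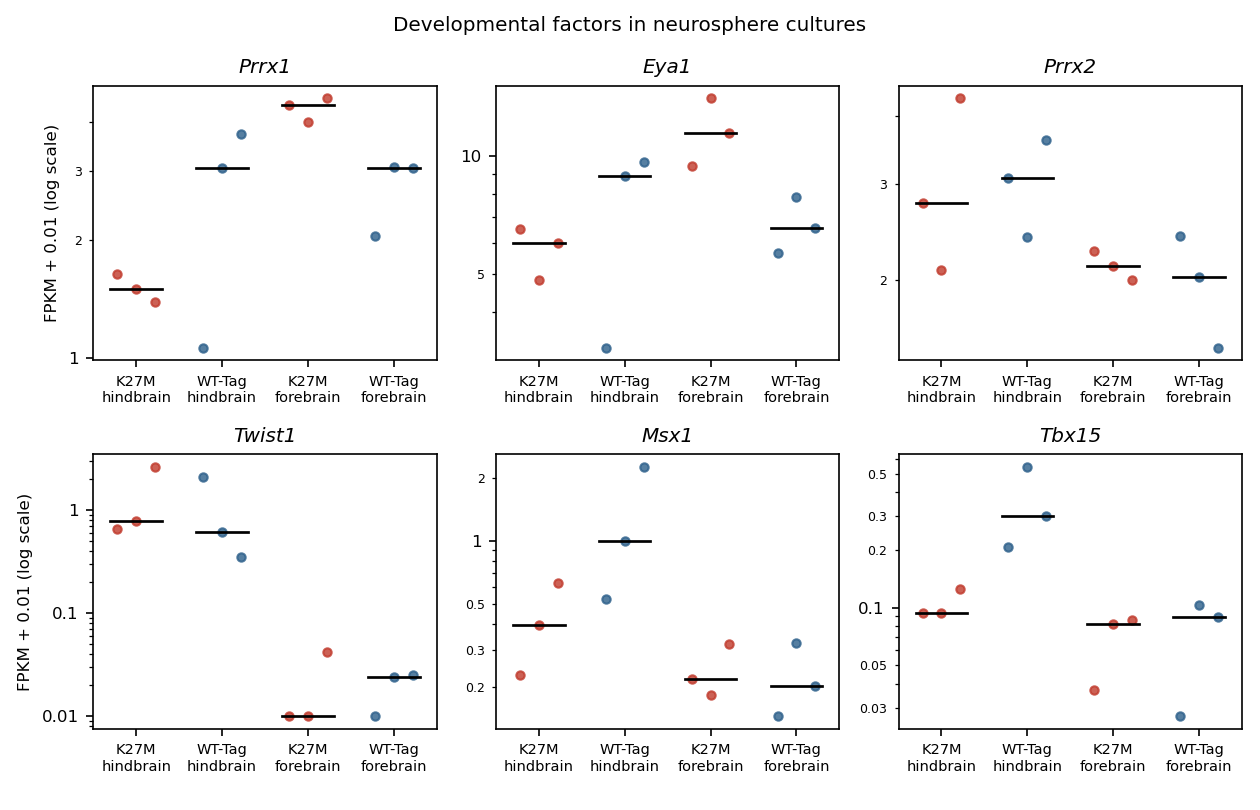
Single cultures (points) and medians (bars) of 6 genes in K27M and WT-Tag cultures of hindbrain and forebrain, as FPKM + 0.01 on a log axis. Twist1 lies near the floor in forebrain and between 0.338 and 2.62 FPKM in hindbrain, and WT-Tag hindbrain culture 1 is the lowest of all cultures for Prrx1 and Eya1.

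The last comparisons set hindbrain cultures against forebrain cultures of the same genotype. Twist1 was higher in hindbrain and Prrx1, with K27M, lower. Twist1 had 0.652, 0.782 and 2.62 FPKM in K27M hindbrain cultures, against 0, 0 and 0.032 FPKM in K27M forebrain cultures. In WT-Tag cultures it had 2.09, 0.610 and 0.338 FPKM in hindbrain, against 0, 0.014 and 0.015 FPKM in forebrain. In reads, this was 24 to 128 per hindbrain library and 0 to 2 per forebrain library. The log2 difference, hindbrain against forebrain, was 3.47 ± 0.58 in K27M cultures (limma, fit at 0.1 FPKM, adjusted p = 0.00521) and 3.01 ± 0.58 in WT-Tag cultures (adjusted p = 0.0243). Twist1 met the 0.1 FPKM filter only through the hindbrain libraries, where it is high, so the filter was met by the difference itself. In the fit of every gene, which has no filter, the same differences had adjusted p = 0.00977 in K27M cultures and 0.0455 in WT-Tag cultures. The WT-Tag call was lost without any 1 of WT-Tag forebrain cultures 1, 2 and 3 or WT-Tag hindbrain culture 2, where the adjusted p was 0.063 to 0.0886, and without experiment 3 (0.0574). With K27M against WT-Tag in hindbrain the log2 change was 0.47 ± 0.58 (adjusted p = 0.646). With a pseudocount of 1 and no filter neither region call held (adjusted p = 0.117 in K27M cultures and 0.429 in WT-Tag cultures). In the fit at 0.1 FPKM, 2 of 8 members were called between regions in K27M cultures (6.37% of genes) and 1 of 8 in WT-Tag cultures (1.65%), Twist1 in each count, so nothing is read from these counts.

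Prrx1 went the other way in K27M cultures, with 1.63, 1.49 and 1.38 FPKM in hindbrain, against 4.41, 3.995 and 4.59 FPKM in forebrain. The groups did not overlap, and the log2 difference of -1.09 ± 0.25 passed the threshold (limma, fit at 1 FPKM, adjusted p = 0.0222), the only one of 3 tested members to do so (7.92% of genes were called). It was lost without any 1 of the 6 K27M cultures (adjusted p 0.0593 to 0.0751), without experiment 3 (0.171) and with no filter (0.059). In WT-Tag cultures Prrx1 had 1.05, 3.05 and 3.71 FPKM in hindbrain, against 2.04, 3.06 and 3.04 FPKM in forebrain, with a log2 difference of -0.12 ± 0.25 (adjusted p = 0.929), and 0 of 3 members were called there (1.82% of genes, with 1 of 3 at an unadjusted p below 0.05, against 10.8%). Eya1 in K27M cultures differed by -0.89 ± 0.29 between regions (limma adjusted p = 0.0975), and by the same amount with an adjusted p of 0.0145 when only the K27M cultures were fitted and 0.00435 without WT-Tag hindbrain culture 1. This difference did not pass in any other fit that left out 1 culture (adjusted p up to 0.258). Tbx15 and Msx1 had higher values in hindbrain than in forebrain in each WT-Tag experiment, by 1.39 ± 0.33 and 1.94 ± 0.46 on the log2 scale (limma, fit at 0.1 FPKM, adjusted p = 0.0656 and 0.069, or 0.0399 and 0.0272 with the replicate block). Without WT-Tag hindbrain culture 1 both passed, with adjusted p = 0.0276 for Tbx15 and 0.0168 for Msx1. No other fit that left out 1 culture passed (adjusted p up to 0.211 for Tbx15 and 0.225 for Msx1). Tbx15 met the 0.1 FPKM filter only through hindbrain libraries, where it is high, so its filter was met by the difference itself. Over all 31 members, 6 were higher in hindbrain without overlap in WT-Tag cultures (Gata3, Tbx15, Twist1, Msx1, Msx2 and Lmx1a), against 5.45% of genes, and 0 were lower, against 4.75%. In K27M cultures 4 were higher (8.86% of genes) and 5 lower (9.95%). In the fit of every gene, 7 of 31 members (22.6%) were higher in WT-Tag hindbrain at an unadjusted p below 0.05, against 4.57% of genes, and 0 were lower, against 3.43%. In K27M cultures 1 was higher (6.34% of genes) and 3 were lower (7.59%).

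The complexes and signals that act on these genes were examined as lists. In tumors 0 of 11 subunits and partners of PRC2, which writes H3K27me3, and 0 of 20 subunits of PRC1, which binds it, passed the threshold in either direction. Only 0.0846% of all genes were called there, so a count of 0 in a short list does not show that its genes stayed unchanged. In hindbrain cultures, where 13.5% of all genes were called, 2 of 11 PRC2 genes were, a share near that of all genes. Both were higher with K27M, namely the subunit Eed (log2 change 0.41 ± 0.12, adjusted p = 0.0415) and the accessory factor Mtf2 (0.36 ± 0.10, adjusted p = 0.0316), and the list's median was 0.35 against 0.09 over all genes. Of PRC1, 18 genes were tested in hindbrain, 4 were called, all higher, with a list median of 0.23, against the same 13.5% of all genes. They were Bmi1 (0.64 ± 0.10, limma adjusted p = 0.00471), the ubiquitin ligase Rnf2 (0.45 ± 0.09, adjusted p = 0.0102), the H3K27me3 reader Cbx2 (0.58 ± 0.14, adjusted p = 0.0225) and Phc2 (0.44 ± 0.13, adjusted p = 0.044). In forebrain 0 of 11 PRC2 genes and 1 of 18 PRC1 genes were called, Bmi1 at 0.74 ± 0.10 (adjusted p = 0.0081), against 0.356% of all genes. Of 23 genes of the BMP pathway, whose signals act on Msx1, 0 of 20 tested were called in tumors (0.0846% of all genes) and 0 of 14 in forebrain (0.356%). In hindbrain 1 of 14 was called higher with K27M, the pseudoreceptor Bambi (0.67 ± 0.12, adjusted p = 0.00703), and 1 lower, the signal transducer Smad9 (-0.50 ± 0.14, adjusted p = 0.0379), together a share near the 13.5% of all genes. Of 23 relatives of the members from the same families, 0 of 6 tested were called in tumors (0.0846% of all genes) and 0 of 5 in forebrain (0.356%). In hindbrain 1 of 5 was called, Barx2, a homeobox paralog of Barx1 (1.18 ± 0.28, limma adjusted p = 0.0207), against 13.5% of all genes.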

How the data were processed

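Per the labels' protocols, RNA came from Trizol extraction and libraries from a TruSeq Stranded Total RNA kit. The submitters' processing notes name CASAVA, TopHat2, STAR and build mm9, without versions. The program that counted reads, its use of strand and its annotation were not given in the sources used here. One table of FPKM values for 41 libraries, with 3 decimals, was deposited by the authors. In GENCODE M21 exons of 7 members overlap a gene on the other strand (Gata3, Gata6, Tbx3, Tbx18, Hand2, Twist2 and Pitx1), and reads of such pairs cannot be told apart where strand was not used.

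Groups came from the labels. log2(FPKM + 1) was tested with limma 3.58.1 in R 4.3.3, with a mean-variance trend, 2-sided, Benjamini-Hochberg adjustment over all genes tested and a threshold of 0.05. Tumors were fitted alone, and the 12 cultures as 4 groups (genes at 1 FPKM or more in at least 3 libraries). A pseudocount of 1 shrinks fold changes of low genes, so a fit with filter and pseudocount 0.1 was run, and a fit of every gene with pseudocount 0.1 was added after values were seen. The limma step was tried on simulated, normally distributed values only for genes kept at 1 FPKM and with a pseudocount of 1. The fits that keep low genes, which gave the calls in tumors, were not simulated. Reads per library were estimated from low values among 12258 genes with 1 transcript. Of the 994 to 2595 values used per library, 92.1% to 94.4% lay within 0.1 of a whole read. The depth was chosen by how well values fell on whole reads, so this share is not a separate check. No count test was run. No pair of libraries was identical (highest r 0.997).

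The labels' experiment id pairs the cultures. Deviations of K27M and WT-Tag cultures of the same id correlated at 0.412, 0.152 and 0.438 in hindbrain and 0.443, -0.234 and 0.352 in forebrain. Forebrain and hindbrain cultures of the same id correlated at 0.668, 0.712 and 0.165 with WT-Tag and 0.216, -0.047 and -0.040 with K27M. The main fits carried no term for this pairing, which only the replicate block did. Every member is described, with full values for those past the threshold, the 6 with the smallest p in tumors and the 4 with the smallest p in each K27M comparison of cultures, and the others by range. Alternatives were the pseudocount, the filter, rescaling to a common sum, terms for labelled sex and markers, the replicate block, the compared groups alone and leaving out libraries. Members, lists and alternatives were chosen with earlier results of these data known. Spike-ins and chromatin data were not analysed here.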

Additional observations from a re-analysis of the deposited data

Results flagged for a closer look

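Of the 30 members tested, 7 in the WT-Tag tumors had 1 of the 9 tumors far above the rest, by the gap to the nearest tumor as a share of the group's range on log2(FPKM + 1). Chance flags about 1 in 20 such groups where values are normally distributed, and these low, skewed values were not tested against that rate. Isl2, the motor neuron LIM factor, was at 0.795 FPKM in tumor 29, where the gap was 0.746 of the range. Tumor 29 also held the highest Barx1, at 0.486 FPKM (0.51 of the range). The cranial motor neuron factor Tbx20 reached 0.362 FPKM in tumor 26 (0.696 of the range). The heart and forelimb factor Tbx5 reached 0.197 FPKM in tumor 27 (0.702 of the range), which also held the highest summed pericyte and fibroblast markers of all tumors, 237 FPKM, and their part in this value was not tested. Alx4, the limb and skull factor, reached 0.547 FPKM in tumor 8 (0.564 of the range). Pitx1, a hindlimb and pituitary factor, reached 0.119 FPKM in tumor 7 (0.566 of the range), the tumor with the highest Hand2. The face factor Alx1 was at 0.059 FPKM in tumor 11 (0.809 of the range), with 7 of 9 WT-Tag tumors at 0.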

How the results depend on the processing

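Most members lie where FPKM steps of single reads are large, so the filter and pseudocount decide which of them can be called. In tumors the count of members past the threshold was 0 at 1 FPKM, 1 at 0.1 FPKM and 3 in the fit of every gene, and 0 to 1 when 1 tumor was left out (1 without WT-Tag tumor 9). For hindbrain against forebrain it was 1 in WT-Tag cultures at 0.1 FPKM and in the fit of every gene, against 0. In K27M cultures it was 2 at 0.1 FPKM and with the compared groups alone, and 0 with no filter or without experiment 3, against 1. With 1 culture left out the counts ran from 0 to 2 for K27M against WT-Tag in hindbrain, 0 to 2 for the difference between regions, and 0 to 2 for K27M hindbrain against forebrain (2 each without WT-Tag hindbrain culture 1), and stayed at 0 in forebrain and between WT-Tag regions. The cause of these shifts was not tested. With the replicate block in the fit at 0.1 FPKM, Tbx15 and Msx1 passed in hindbrain and between WT-Tag regions (adjusted p = 0.033, 0.0457, 0.0399 and 0.0272), and with the block no call changed for Twist1 between regions in that fit or for Eya1, Prrx1 and Prrx2 at 1 FPKM. Tbx15, Gata3 and Twist1 met the 0.1 FPKM filter only through hindbrain libraries, for Tbx15 and Gata3 mostly those with WT-Tag, where they are high.

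Values near 0 changed sign. For K27M against WT-Tag in hindbrain, Eya1 was 0.034 without experiment 3 and -0.60 to 0.061 with 1 culture left out, and Prrx2 was 0.016 after rescaling and -0.23 to 0.16. In forebrain Prrx2 was -0.0089 without experiment 3 and -0.039 to 0.18. The Prrx2 difference between regions was -0.31 to 0.079. Between WT-Tag regions Eya1 was -0.018 with pseudocount 0.1 (with either filter or none), -0.055 after rescaling, -0.25 without experiment 3 and -0.24 to 0.43, and Prrx1 was -0.35 to 0.25.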
